A study of Mus musculus with 16 samples.

Results

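The S100 calcium-binding proteins were followed in the mouse aorta, with or without 7 days of angiotensin II. The 10 genes were taken by symbol from a table of 54532 genes: S100a1, S100a4, S100a6, S100a8, S100a9, S100a10, S100a11, S100a13, S100a16 and S100b. All 10 were among the 15007 genes that passed a filter on low values (a mean of at least 0.5 FPKM over the 16 libraries). FPKM is the number of fragments scaled by transcript length and library depth, so it can be compared between genes. The RNA came from aortas of male Apoe-/- mice of strain C57BL/6j aged 8 to 12 weeks. Both groups lacked apolipoprotein E, which makes mice prone to high cholesterol and atherosclerosis. The library names of both groups begin with WT, and what that prefix refers to is not known here. The saline group (8 libraries) received sodium chloride solution, and the Ang II group (8 libraries) received angiotensin II, a hormone that constricts arteries, at 1000 ng per kg per min, both from osmotic pumps for 7 days. The adventitia, the outer coat of the wall, had been removed before extraction. The labels do not say that each library came from a separate mouse, so the p-values measure the spread between these libraries.

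S100 proteins are small calcium sensors of the EF-hand family that mostly work as dimers. When calcium binds they expose a surface that docks onto other proteins, among them annexins, myosins, tropomyosin and ion pumps. Several are also released from cells, and the pair S100A8 and S100A9, which makes up calprotectin, is abundant in neutrophils and monocytes and can signal through TLR4 and RAGE. In arteries, S100A4 is used as a marker of smooth muscle cells that have left the contractile state and of some fibroblasts and macrophages.

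Of the genes tested, limma called 34.5% changed at an adjusted p under 0.05, 9.54% higher and 24.9% lower with Ang II. The deposited values had a median log2 fold change of -0.12 over all genes. After scaling the libraries by median ratios that median was -0.003, and 2238 genes were called higher and 2114 lower, in place of 1431 and 3741. Library depth was 14606864 to 19988730 reads. Saline 2, Saline 7 and Saline 8 were far from the rest on component 1 of a principal component analysis, which held 46.9% of the variance. Calls of S100 genes, of their partners and of the ratios that were lost without them together are named where they occur. For marker genes only the fit to all 16 libraries is given, apart from their scores as covariates. All 10 smooth muscle markers were above 0 in every library, with a summed level of 9844 to 16261 FPKM in saline and 7254 to 12474 FPKM in Ang II, and 4 of them were called lower.

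Of the 10 S100 genes, 3 were called higher with Ang II (S100a4, S100a6 and S100a9), 0 were called lower and 7 were not called. That is 3 of 10 against a background of 9.54% called higher. The median log2 fold change of the 10 was 0.12, with 6 values above 0 and 4 below, against -0.12 over all genes tested. In 2 genes, S100a4 and S100a6, the lowest Ang II library was still higher than the highest saline library, as it was in 2.74% of the genes tested. The reverse pattern held for 0 of the 10 and for 5.62% of the genes tested. Summed over the 10 genes, the S100 level was 1494 ± 302 FPKM in saline and 1906 ± 287 FPKM in Ang II (SD, n = 8 each). S100a6 alone supplied 33.3% to 42.7% of that sum in the saline libraries and 46.0% to 56.1% in the Ang II libraries.

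**Figure D1:**
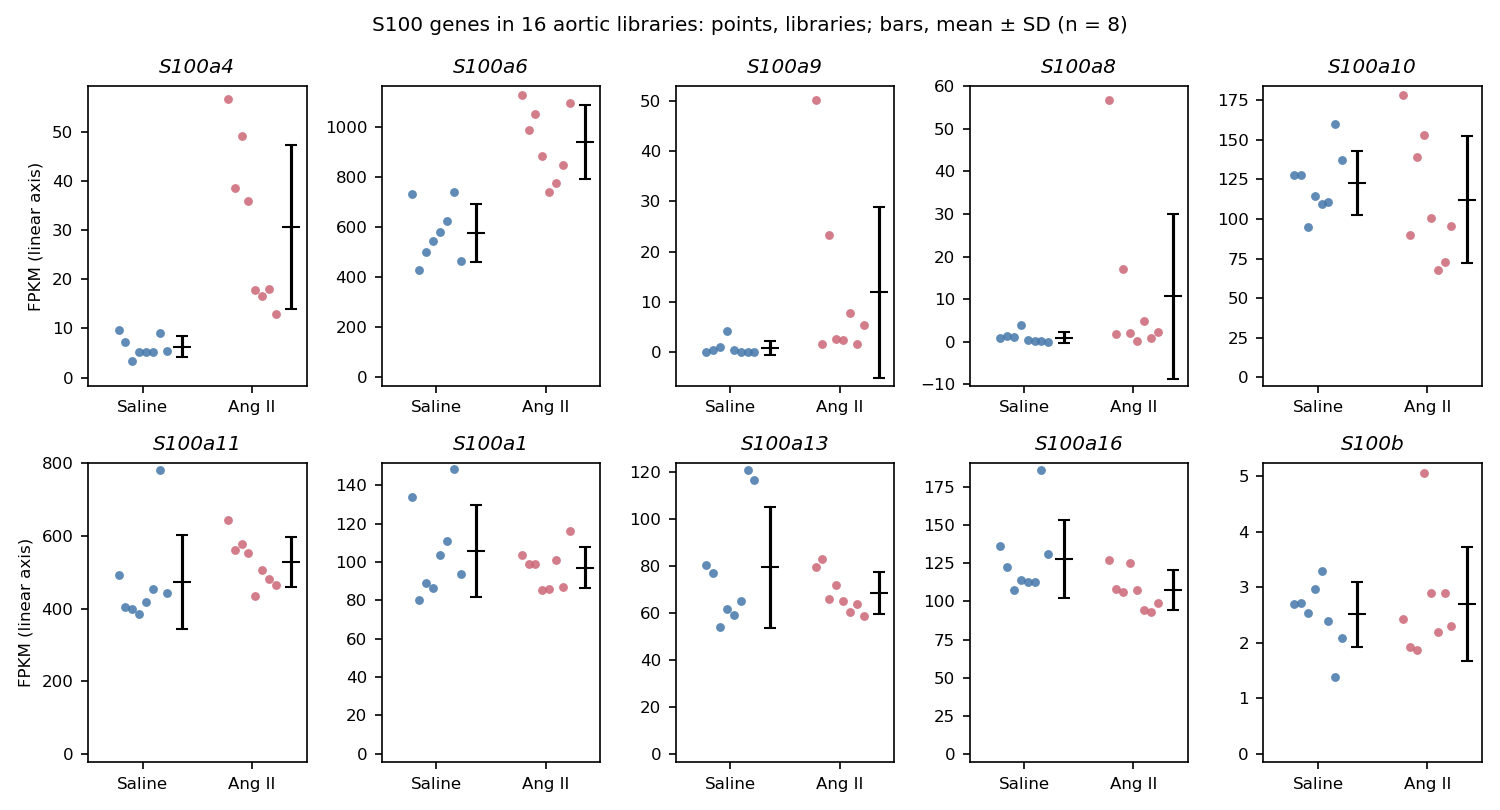
FPKM of each S100 gene on linear axes, with 1 point per library, saline in blue and Ang II in red, and bars for the mean ± SD over 8 libraries; each panel has its own scale. S100a4 and S100a6 have Ang II points that all lie above the saline points, S100a8 and S100a9 have a few very high Ang II points, and the other genes overlap.

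The levels spanned more than 2 orders of magnitude. In saline the order of the means was S100a6, S100a11, S100a16, S100a10, S100a1, S100a13, S100a4, S100b, S100a8 and S100a9. The libraries of S100a6 and S100a11 overlapped, as did the neighbours from S100a16 down to S100a13 and those from S100b down to S100a9. The steps from S100a11 to S100a16, from S100a13 to S100a4 and from S100a4 to S100b had no overlap. In Ang II the order was S100a6, S100a11, S100a10, S100a16, S100a1, S100a13, S100a4, S100a9, S100a8 and S100b. Here S100a6 lay above S100a11 in all 8 libraries with no overlap of their ranges, and the steps from S100a11 to S100a10, from S100a1 to S100a13 and from S100a13 to S100a4 had none either. S100b had the lowest mean, inside the range of S100a8.

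In the GRCm38 build, 9 of the 10 genes lie on chromosome 3 within 3.05 Mb, and S100b lies on chromosome 10. S100a1 (minus strand) and S100a13 (plus strand) start back to back with 42 bases between them. S100a16, S100a4 and S100a6 follow, with 6.84 kb between S100a4 and S100a6. S100a8 and S100a9 lie 22.6 kb apart on opposite strands, and S100a11 and S100a10 form a separate pair, 28.8 kb apart and 2825 kb beyond S100a9. Calls differed between neighbours: S100a4 and S100a6 were called higher, while S100a16 on one side of them and S100a8 on the other were not.

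S100a4, also called FSP1 or metastasin, binds non-muscle myosin and promotes cell movement. The gene (ENSMUSG00000001020) lies at 90603771 to 90606045 on the plus strand of chromosome 3. The lowest, median and highest saline libraries held 3.43, 5.38 and 9.61 FPKM, and those of Ang II held 13.04, 27.1 and 56.7 FPKM. Every Ang II library was above every saline library, and within the Ang II group the libraries fell into a high set and a low set. Ang II 1 to Ang II 4 held 56.7, 38.6, 49.3 and 36.0 FPKM, while the other 4 held 13.04 to 18.1 FPKM, with none between. The mean was 6.30 ± 2.15 FPKM in saline and 30.7 ± 16.7 FPKM in Ang II (SD, n = 8), a log2 fold change of 1.99 ± 0.29 (SE, limma adjusted p = 7.32e-05, fitted to log2(FPKM + 1)). The values rest on 25 to 68 reads per saline library and 100 to 373 per Ang II library. Of the exon bases of S100a4, 51.7% also lie in exons of Gm42674 on the same strand, which is listed at 0 in all 16 libraries, so the level of S100a4 depends on how shared reads were assigned.

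S100a6, or calcyclin, binds annexins, tropomyosin and the calcyclin-binding protein and is abundant in dividing and mesenchymal cells. It was the most abundant S100 mRNA in both groups. Its gene (ENSMUSG00000001025) lies at 90612882 to 90624181 on the plus strand of chromosome 3. Saline libraries held 428 to 738 FPKM with a median of 561, and Ang II libraries held 741 to 1127 FPKM with a median of 934. The groups did not overlap, although the highest saline library (Saline 7) and the lowest Ang II library (Ang II 5) nearly met. The mean rose from 576 ± 116 to 937 ± 147 FPKM (SD, n = 8), a log2 fold change of 0.71 ± 0.14 (SE, limma adjusted p = 8.05e-04), with 3621 to 7186 reads per saline library and 7477 to 11654 per Ang II library. S100a4 and S100a6 were called higher under all 30 alternatives run, with log2 fold changes of 1.52 to 2.14 and of 0.62 to 0.90. The lowest of each, 1.52 and 0.62, came with a macrophage and monocyte marker score as covariate.

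**Figure D2:**
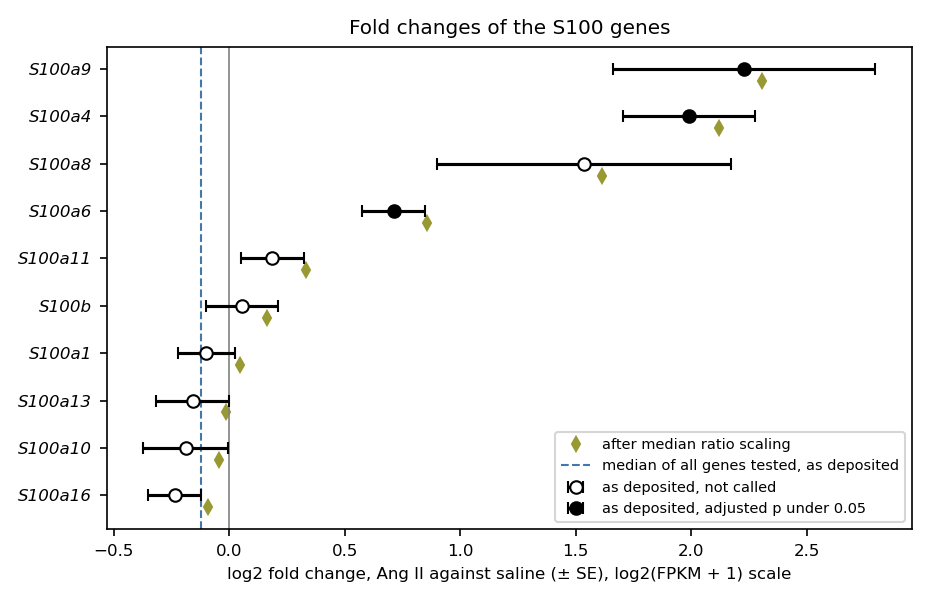
Log2 fold change of each S100 gene, Ang II against saline, on the log2(FPKM + 1) scale; circles are the deposited values with bars of ± SE, filled where the limma adjusted p was under 0.05, and diamonds show the same after median ratio scaling. The filled circles are S100a9 at 2.23, S100a4 at 1.99 and S100a6 at 0.71, and the dashed line is the median of all genes at -0.12.

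The start regions of S100a4, S100a8 and S100a9 are printed because these 3 genes had the largest fold changes. They were taken from the RefSeq promoter windows (GRCm38.p6, 250 bases before the annotated start), which matched 9 of the 10 genes in 10 windows. Capitals mark TATAAA, the TATA box, in S100a4 and S100a8, and TTNCNNAA, the core of a C/EBP site, in S100a8 and S100a9. C/EBP factors drive many genes of myeloid cells. S100a8 is shown in 2 runs, since GENCODE places the start of that gene between them. The runs are read 5′ to 3′ on the strand of the gene, S100a4 at chr3:90603610-90603769 (+), S100a8 at chr3:90668821-90668977 (+), the S100a8 TATA box at chr3:90669033-90669056 (+) and S100a9 at chr3:90695722-90695881 (-).
S100a4: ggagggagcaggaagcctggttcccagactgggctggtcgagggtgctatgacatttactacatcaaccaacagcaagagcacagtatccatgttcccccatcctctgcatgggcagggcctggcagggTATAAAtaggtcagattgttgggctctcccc
S100a8: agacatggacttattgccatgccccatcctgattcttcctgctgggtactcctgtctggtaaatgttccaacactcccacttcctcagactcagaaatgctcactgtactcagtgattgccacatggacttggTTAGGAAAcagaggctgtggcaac
S100a8 TATA box: ctttcctcTATAAAagcagctgac
S100a9: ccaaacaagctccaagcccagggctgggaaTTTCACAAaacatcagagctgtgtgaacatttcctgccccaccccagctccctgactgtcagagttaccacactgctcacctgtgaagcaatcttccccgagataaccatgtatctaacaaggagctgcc

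Both strands were searched. The TATA box was found only in S100a4, at 31 to 26 bases before the start, and in S100a8, at 30 to 25 bases, and 12.4% of all 32851 windows hold it. The C/EBP core was found at 117 to 110 bases before the start of S100a8, on the opposite strand, and in S100a9 at 130 to 123 and at 236 to 229 bases, of which the nearer match is the one in capitals. That motif stands in 36.8% of all windows. The AP-1 core TGANTCA was found in the windows of S100a11, with 2 matches, and S100a16, against 6.75% of all windows, and neither gene was called changed. GGGCGG, the GC box, was in windows of S100a9, S100a11 and S100a16 (32.7% of all windows), and CANNTG, the E-box, in 8 of the 10 windows (66.2%). GGAATG, the TEAD core, the CArG box bound by serum response factor and the NF-kB site had no match in these windows.

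S100a8 and S100a9 encode the 2 chains of calprotectin, a zinc- and calcium-binding protein that neutrophils and monocytes carry in their cytosol and release at sites of inflammation. S100a9 (ENSMUSG00000056071, chromosome 3, 90692632 to 90695721, minus strand) held 0, 0.257 and 4.17 FPKM in the lowest, median and highest saline library and 1.55, 4.02 and 50.2 FPKM in those of Ang II. In the Ang II group, Ang II 1 (50.2 FPKM) and Ang II 3 (23.3 FPKM) were far above the other 6 libraries, which held 1.55 to 7.77 FPKM. Only Saline 4, at 4.17 FPKM, reached into the Ang II range, and 4 of 8 Ang II libraries were above it. The log2 fold change of S100a9 was 2.23 ± 0.57 (SE, limma adjusted p = 0.00639), with means of 0.779 ± 1.42 and 11.9 ± 17.1 FPKM (SD, n = 8).

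S100a8 (ENSMUSG00000056054, chromosome 3, 90668978 to 90670035, plus strand) held 0, 0.593 and 4.01 FPKM in the lowest, median and highest saline library and 0.117, 2.19 and 56.8 FPKM in those of Ang II. Its high libraries were those of S100a9: Ang II 1 at 56.8 FPKM, Ang II 3 at 17.0 FPKM and, among saline, Saline 4. The groups overlapped, with 3 of 8 Ang II libraries above every saline library. Its log2 fold change was 1.54 ± 0.64 (SE), and limma did not call it (adjusted p = 0.0703). The call depends on single libraries, since S100a8 passed without Ang II 5 (adjusted p = 0.0314) and without Saline 4 (adjusted p = 0.0438). These are low counts: S100a8 had 64 reads over all saline libraries and 698 over all Ang II libraries, and S100a9 had 55 and 825.

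The calprotectin signal rested in part on Ang II 1 and Ang II 3. Without these libraries, a choice made after seeing the data, the log2 fold change of S100a9 was 1.45 and still called (limma adjusted p = 0.0125), while that of S100a8 was 0.64 (adjusted p = 0.232). The size of the S100a9 change also depended on the scale. It was 3.95 with a pseudocount of 0.1 in place of 1, and 4.23 with voom on reads recovered from the FPKM, and it was called in both.

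Markers of leukocytes were high in some, but not all, of the libraries high in calprotectin. The 17 neutrophil markers summed to 0.318 to 17.9 FPKM in saline and 3.22 to 52.7 FPKM in Ang II, with the highest sums in Ang II 1 (52.7 FPKM) and Ang II 3 (24.8 FPKM). Only 3 of these markers passed the filter and 0 were called. Members of the list differed. Ly6g was at most 0.269 FPKM and Mpo at most 0.231 FPKM in any library. Cxcr2 and Il1r2 were highest in Ang II 1 (3.18 and 9.16 FPKM) and next in Ang II 3 (0.988 and 2.59 FPKM), while Lcn2 was highest in Saline 2 (15.8 FPKM). Csf3r, the G-CSF receptor of granulocytes and monocytes, reached 20.1 FPKM in Ang II 1. Of the 16 macrophage and monocyte markers, 15 were tested and 4 were called higher (Adgre1, Csf1r, Ccr2 and Chil3), beside 9.54% of all genes. Ccr2 and Chil3 averaged 0.272 and 0.284 FPKM in saline, under the filter of 0.5 FPKM. They passed it only through the Ang II group (means of 3.31 and 4.47 FPKM), where Ang II 1 held 17.1 and 20.5 FPKM. The sum of the 16 ran from 27.0 to 748 FPKM in saline and from 84.0 to 817 FPKM in Ang II. The sums did not always follow calprotectin. Saline 2 had 17.9 FPKM of the neutrophil markers, 15.8 FPKM of it from Lcn2, with S100a9 at 0.399 FPKM. Saline 4, the saline library highest in calprotectin, had 5.06 FPKM of the neutrophil markers. Saline 1 had 748 FPKM of the macrophage and monocyte markers, 404 FPKM of it from Lyz2, with S100a9 at 0. Ang II 5 had 84.0 FPKM of these markers with S100a9 at 2.45 FPKM. With a macrophage and monocyte score as covariate, the log2 fold change of S100a9 was 1.34 (limma adjusted p = 0.117) and that of S100a8 was 0.22 (adjusted p = 0.809). Calls over all genes also fell with this covariate, to 774 higher and 2004 lower in place of 1431 and 3741. The score was built from the tested markers, Ccr2 and Chil3 included. The part of the neutrophil markers in the S100a8 and S100a9 results was not tested. In RNA of whole tissue, more cells of a type and more RNA per cell cannot be told apart.

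**Figure D3:**
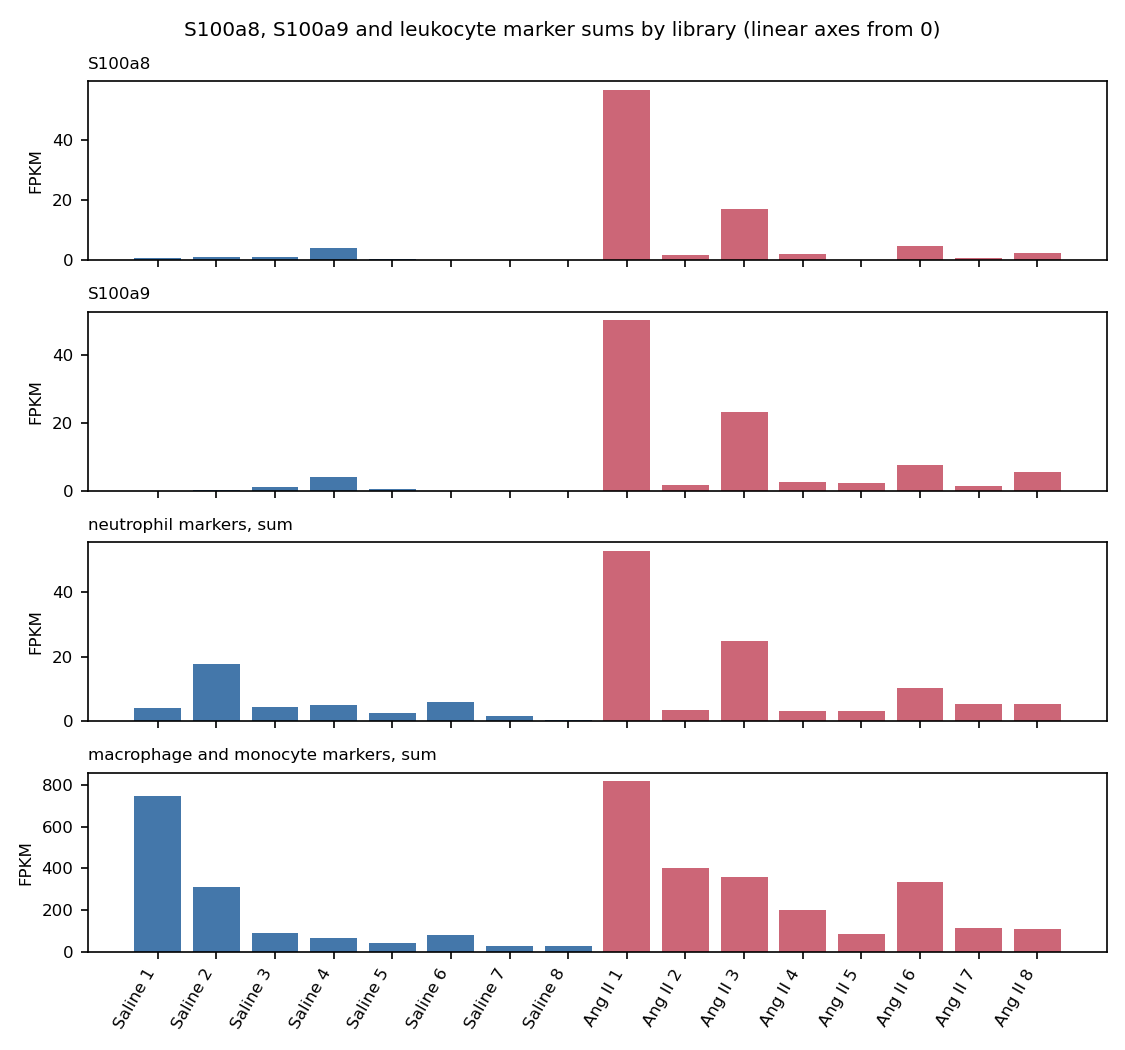
FPKM of S100a8 and S100a9 and summed FPKM of neutrophil and of macrophage and monocyte markers in each library, saline in blue and Ang II in red, as bars from 0 on linear axes. Ang II 1 and Ang II 3 have the 2 highest bars for S100a8, S100a9 and the neutrophil sum. Saline 1 has a macrophage and monocyte sum of 748 FPKM, 404 FPKM of it from Lyz2, with almost no S100a8 or S100a9.

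The balance of the 2 calprotectin chains was compared as a log2 ratio of S100a9 to S100a8 (FPKM + 1) within each library. It was -0.19 ± 0.38 in saline and 0.50 ± 0.60 in Ang II (SD, n = 8), a difference of 0.69 (exact permutation test, two-sided, p = 0.0107, adjusted over 2 ratios 0.0107). With this pseudocount of 1, the ratio was above that of every saline library in 6 of 8 Ang II libraries, the exceptions being Ang II 1 and Ang II 2. That count depends on the pseudocount. As a plain ratio of FPKM, Ang II 4 was at 1.24, below Saline 5 at 1.27. Without Saline 2, Saline 7 and Saline 8 the difference was 0.64 and no longer passed (adjusted p = 0.0590, exact), and with a pseudocount of 0.1 it was 1.51. S100a9 was listed at 0 in 3 saline libraries, where the ratio depends on the pseudocount, and in Saline 8 S100a8 was at 0 too. Other ratios also rested on few reads. The highest saline ratio, in Saline 5, came from 3 reads of S100a8 and 4 of S100a9. The highest Ang II ratio, in Ang II 5, came from 1 read of S100a8 and 22 of S100a9.

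S100a10, or p11, differs from the other family members in that it cannot bind calcium. It forms a complex with annexin A2, which protects it from degradation, and the complex carries plasminogen and its activator tPA to the cell surface and moves ion channels to the membrane. S100a10 (ENSMUSG00000041959, chromosome 3, 93555080 to 93564643, plus strand) held 95.2, 121 and 160 FPKM in the lowest, median and highest saline library and 67.6, 98.1 and 178 FPKM in those of Ang II. The Ang II libraries spread to both sides of the saline range, with 3 below it and 1, Ang II 1, above it. The log2 fold change was -0.19 ± 0.18 (SE, limma adjusted p = 0.441).

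Anxa2, which encodes annexin A2, rose in the same libraries. It held 206 to 321 FPKM in saline and 372 to 619 FPKM in Ang II, with no overlap. Its mean went from 252 ± 34.1 to 479 ± 93.3 FPKM (SD, n = 8), a log2 fold change of 0.91 ± 0.12 (SE, limma adjusted p = 4.05e-05). The linear ratio of S100a10 to Anxa2 was 0.389 to 0.627 in saline and 0.162 to 0.288 in Ang II, lower in 8 of 8 Ang II libraries than in any saline library. On the log2(FPKM + 1) scale the ratio went from -1.04 ± 0.31 to -2.14 ± 0.32 (SD, n = 8), a difference of -1.10 (exact permutation test, two-sided, p = 0.000155, the smallest that 12870 assignments can give, adjusted p = 0.000311). A ratio within a library does not depend on the scaling between libraries, and it describes mRNA, not the protein complex.

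**Figure D4:**
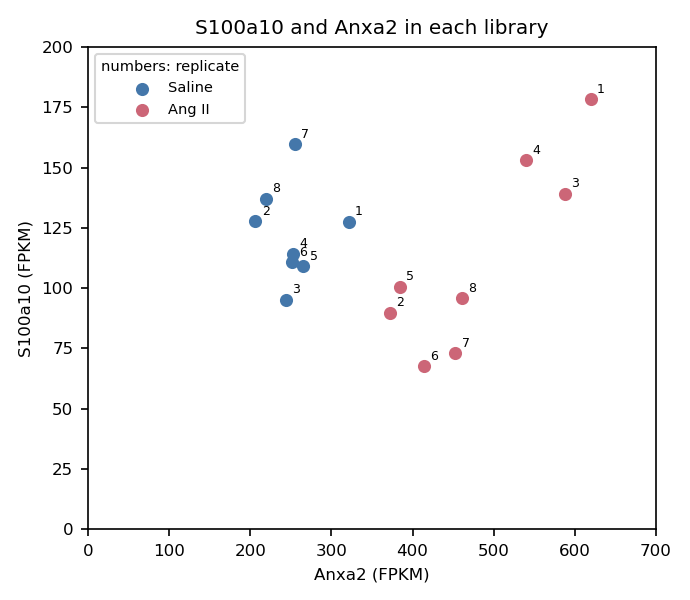
S100a10 against Anxa2 in FPKM on linear axes, with 1 point per library labelled by its replicate number, saline in blue and Ang II in red. The Ang II points lie to the right, at 372 to 619 FPKM of Anxa2, while their S100a10 of 67.6 to 178 FPKM covers the saline range of 95.2 to 160.

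The annexin and membrane partners of the S100 family, with Anxa2 counted among them, moved both ways. Of 9 tested, 3 were called higher and 1 lower, beside 9.54% and 24.9% of all genes, with a median log2 fold change of 0.09. Anxa1, the partner of S100A11 and a mediator of the resolution of inflammation, was higher in 7 of 8 Ang II libraries than in any saline library, with means of 325 ± 119 and 595 ± 86.0 FPKM (SD, n = 8) and a log2 fold change of 0.96 ± 0.22 (SE, limma adjusted p = 0.00313). Anxa5 rose by 0.39 and Anxa6, a partner of S100A1 and S100A6, fell by 0.37 on the log2 scale. Anxa6 was not called with median ratio scaling (-0.22, limma adjusted p = 0.109), quantile normalization (-0.16) or the macrophage and monocyte covariate, which also ended the call of Anxa5 (limma adjusted p = 0.0801). Without Saline 2, Saline 7 and Saline 8 Anxa1 was 0.55 and still called (limma adjusted p = 0.00261). Ahnak, the large scaffold that binds the S100A10 and annexin A2 complex, held 123 ± 34.6 and 122 ± 17.5 FPKM (SD, n = 8; limma adjusted p = 0.921).

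The plasminogen system, which the S100A10 complex brings to the cell surface, was the list with the highest median, 1.60, with 5 of 7 tested genes called higher and 0 lower, where 9.54% of all genes tested were higher and 24.9% lower. Plau, which encodes the urokinase plasminogen activator, held 2.39 ± 1.57 FPKM in saline and 15.0 ± 3.49 FPKM in Ang II (SD, n = 8), a log2 fold change of 2.32 ± 0.23 (SE, limma adjusted p = 1.35e-06). Its receptor gene Plaur went from 9.22 ± 1.87 to 35.4 ± 14.1 FPKM (SD, n = 8), a rise of 1.76 on the log2 scale. Neither gene had any overlap between groups, with every Ang II library above every saline library, as in 2.74% of the genes tested. Among the channels and receptors that S100A10 carries to the membrane, 3 were tested and 1 was called, Htr1b, a serotonin receptor, which went from 15.4 ± 3.82 to 33.9 ± 8.72 FPKM (SD, n = 8; log2 fold change 1.09, limma adjusted p = 0.000185).

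S100a11, or calgizzarin, pairs with annexin A1 and takes part in membrane repair. The gene (ENSMUSG00000027907, chromosome 3, 93520488 to 93526287, plus strand) was the second most abundant of the family, with 384, 431 and 780 FPKM in the lowest, median and highest saline library and 435, 529 and 642 FPKM in those of Ang II. Saline 7, at 780 FPKM, was above every other library, and all other saline libraries were at or below 493 FPKM. The log2 fold change was 0.19 ± 0.14 (SE, limma adjusted p = 0.302), so S100a11 was not called. Without Saline 7 it was 0.29 and passed (adjusted p = 0.0326), and with quantile normalization it was 0.44 (adjusted p = 0.00371).

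S100a1 is the member best known from heart and skeletal muscle, where it activates the calcium pump and the ryanodine receptor. The gene (ENSMUSG00000044080, chromosome 3, 90511034 to 90514392, minus strand) held 80.0, 98.7 and 148 FPKM in the lowest, median and highest saline library and 85.2, 98.8 and 116 FPKM in those of Ang II. All Ang II libraries lay inside the saline range, and the log2 fold change was -0.10 ± 0.12 (SE, limma adjusted p = 0.557). Cardiac muscle markers were low, with sums of 25.9 to 79.4 FPKM in saline and 23.7 to 50.7 FPKM in Ang II. Of the calcium handling and sarcomere partners of S100A1, 4 were tested and 1 was called lower, beside 24.9% of all genes. It was Pln, which encodes the pump inhibitor phospholamban and fell from 1.98 ± 0.831 to 0.698 ± 0.289 FPKM (SD, n = 8, limma adjusted p = 0.00198).

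S100a13, S100a16 and S100b were not called either. S100a13 (ENSMUSG00000042312, chromosome 3, 90514435 to 90524581, plus strand) helps to export FGF1 and interleukin 1 alpha, which lack a secretion signal. It held 53.9, 71.2 and 121 FPKM in the lowest, median and highest saline library and 58.6, 65.5 and 83.0 FPKM in those of Ang II, with Saline 7 and Saline 8 alone above 100 FPKM. Its log2 fold change was -0.16 ± 0.16 (SE, limma adjusted p = 0.456) and became 0.05 without Saline 7 and Saline 8. The only tested gene of its secretion partners, Fgf1, held 54.9 ± 12.8 and 60.8 ± 21.6 FPKM (SD, n = 8).

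S100a16 (ENSMUSG00000074457, chromosome 3, 90537254 to 90543151, plus strand) is a widely expressed member linked to fat cell differentiation. It held 107, 119 and 187 FPKM in the lowest, median and highest saline library and 92.8, 107 and 127 FPKM in those of Ang II. In 4 of 8 Ang II libraries it was below every saline library, the other 4 overlapped, and the log2 fold change was -0.24 ± 0.11 (SE, limma adjusted p = 0.114).

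S100b (ENSMUSG00000033208, chromosome 10, 76253853 to 76261159, plus strand), the marker of astrocytes and Schwann cells that fat and cartilage cells also express, held 1.38, 2.62 and 3.29 FPKM in the lowest, median and highest saline library and 1.87, 2.37 and 5.06 FPKM in those of Ang II. Only Ang II 4, at 5.06 FPKM, lay outside the saline range, and the log2 fold change was 0.05 ± 0.16 (SE, limma adjusted p = 0.811). Of the Schwann cell markers, 5 were tested and 3 were called lower, beside 24.9% of all genes, with sums of 9.86 to 32.1 FPKM in saline and 5.69 to 12.9 FPKM in Ang II. Adipocyte markers summed to 41.7 to 445 FPKM and 26.9 to 182 FPKM, with 3 of 13 called lower, near that share. Of 6 cartilage markers tested 2 were called higher, beside 9.54% of all genes. The part of these cell types in the level of S100b was not tested.

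Of the 11 S100 receptors and coreceptors tested, 3 were called higher and 0 lower, with a median of 0.08, where 9.54% of all genes were higher and 24.9% lower. Tlr4, the receptor of calprotectin on innate immune cells, held 9.97 ± 5.07 FPKM in saline and 17.3 ± 4.57 FPKM in Ang II (SD, n = 8), a log2 fold change of 0.89 ± 0.32 (SE, limma adjusted p = 0.0380), with 5 of 8 Ang II libraries above every saline library. The call is fragile: it passed in 16 of the 30 alternatives, was lost on leaving out any of 8 single libraries (Saline 2, Saline 7 or one of Ang II 3 to Ang II 8), and the change was 0.31 without Saline 2, Saline 7 and Saline 8 (limma adjusted p = 0.193) and 0.43 with the adipocyte covariate (adjusted p = 0.311). Its coreceptor gene Ly96 (MD-2) rose by 0.94 (adjusted p = 0.00980, limma) and Fgfr1, an FGF receptor, by 0.38. Without Saline 2, Saline 7 and Saline 8 Ly96 was still called, at 0.71, though not with either marker score as covariate, and Fgfr1 was not, at 0.30 (limma adjusted p = 0.0758). Ager, which encodes RAGE, the receptor shared by several S100 proteins, was low, at 1.45 ± 1.51 and 0.663 ± 0.334 FPKM (SD, n = 8; limma adjusted p = 0.228).

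Of the 11 intracellular signalling partners of the family, 2 were called higher and 5 lower, beside 9.54% and 24.9% of all genes. Their median was -0.29 against -0.12 over all genes. Ndrg1, Ppp5c and Stub1 fell by 0.91, 0.79 and 0.61 on the log2 scale, each with no overlap between groups, as in 5.62% of all genes tested. Fkbp5 (-0.87) and Trp53 (-0.32) were also called lower, but in only 12 and 8 of the 30 alternatives. Without Saline 2, Saline 7 and Saline 8 they were -0.41 and -0.20 and not called (limma adjusted p = 0.231 and 0.141). Median ratio scaling also ended both calls (limma adjusted p = 0.0990 and 0.293). Ppp5c is a phosphatase and Stub1 an E3 ligase (CHIP), both bound by S100 proteins at their TPR domains. Stk38l, a kinase of the NDR family that S100B activates, rose from 85.3 ± 15.1 to 148 ± 14.1 FPKM (SD, n = 8; log2 fold change 0.81, limma adjusted p = 4.96e-05). Of the 9 cytoskeletal and motor partners, 2 were called higher and 1 lower, with Capza1, an actin capping subunit, at 0.72, Iqgap1, a scaffold bound by S100 proteins, at 0.50 and Tpm1, the tropomyosin gene, at -0.43. Iqgap1 was called in 15 of the 30 alternatives and was 0.18 without Saline 2, Saline 7 and Saline 8 (limma adjusted p = 0.288), and it was also lost on leaving out any of 9 single libraries, Saline 2, Saline 7, Saline 8 or one of Ang II 3 to Ang II 8. Capza1 was 0.32 without the 3 saline libraries and still called (limma adjusted p = 0.0339). It was not called with either marker score as covariate or without Ang II 1 and Ang II 3 (limma adjusted p = 0.0563). Tpm1 was not called with median ratio scaling (-0.28, limma adjusted p = 0.108), quantile normalization or the macrophage and monocyte covariate. Over the 9 partner lists, 18 of 61 tested genes were called higher and 9 lower, with a median of 0.11, beside 9.54% and 24.9% of all genes. With median ratio scaling or quantile normalization 22 were called higher and 4 lower.

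The phagocyte NADPH oxidase, to which calprotectin delivers arachidonic acid, had 2 of 6 genes called higher and 1 lower, beside 9.54% and 24.9% of all genes. Cybb, the catalytic subunit, rose by 1.36 (limma adjusted p = 0.0161) and Ncf1, the organizer subunit p47phox, by 1.04 (adjusted p = 0.0484). Cyba, the p22phox subunit that non-phagocytic oxidases also use, fell by 0.51 (limma adjusted p = 0.0447). With the macrophage and monocyte score as covariate the log2 fold change of Cybb was 0.37 (limma adjusted p = 0.318) and that of Ncf1 was 0.08 (adjusted p = 0.852). Ncf1 was called in 11 and Cyba in 12 of the 30 alternatives, and single libraries decided both calls (any of 10 for Ncf1 and any of 9 for Cyba). Without Saline 2, Saline 7 and Saline 8 none of the 3 was called, with Cybb at 0.89 (limma adjusted p = 0.0732), Ncf1 at 0.97 (adjusted p = 0.114) and Cyba at -0.27 (adjusted p = 0.248). Cybb was called in 25 of the 30 alternatives. Its call was also lost without Ang II 1 and Ang II 3 (limma adjusted p = 0.0752) and with the adipocyte covariate (adjusted p = 0.0687).

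**Figure D5:**
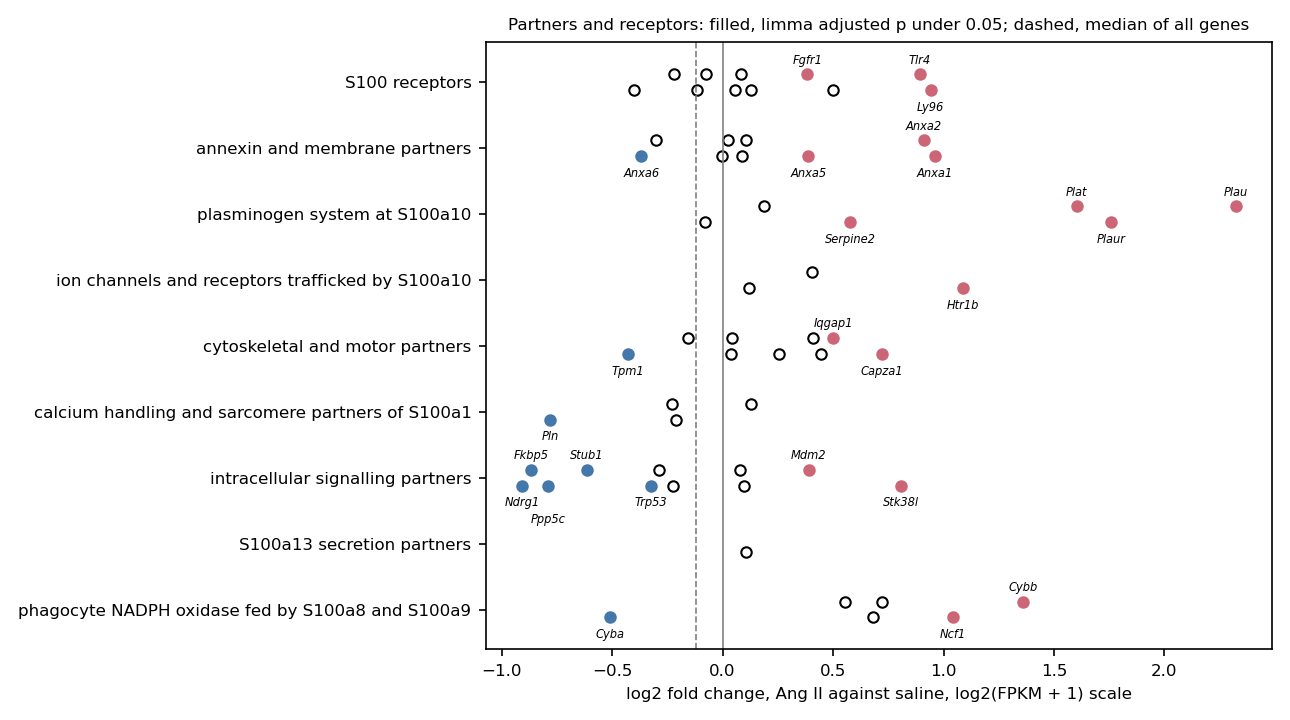
Log2 fold change, Ang II against saline, of the tested partner and receptor genes by list (1 not plotted), on the log2(FPKM + 1) scale, with filled points for a limma adjusted p under 0.05 (red higher, blue lower), open points for genes not called and a dashed line at the median of all genes, -0.12. The plasminogen system reaches the farthest right, with Plau at 2.32, and the signalling partners the farthest left, with Ndrg1 at -0.91.

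Of the S100 genes and S100-fused genes outside these 10, 2 of 16 symbols passed the filter. S100a7a, related to human psoriasin, was called lower, with 12.8 ± 9.99 FPKM in saline and 4.85 ± 2.91 FPKM in Ang II (SD, n = 8; log2 fold change -1.06, limma adjusted p = 0.0262). Its highest saline libraries were Saline 8 and Saline 2, and without Saline 2, Saline 7 and Saline 8 its log2 fold change was -0.48 (adjusted p = 0.172, limma). The call was also lost without Saline 2 alone (limma adjusted p = 0.0550). It passed in 21 of the 30 alternatives, but not with median ratio scaling (limma adjusted p = 0.0582), quantile normalization (0.0522) or the macrophage and monocyte covariate (0.0742). Adipocyte markers summed to 445 FPKM in Saline 8, 337 in Saline 2 and 326 in Saline 6, but S100a7a was only 8.43 FPKM in Saline 6. With an adipocyte score as covariate the change of S100a7a was -0.57 (limma adjusted p = 0.223). The epidermal S100-fused genes Flg, Flg2, Hrnr, Rptn, Tchhl1 and Crnn were listed at 0 in every library.

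Within groups, the S100 genes varied together in some pairs and not in others. Each value was taken as a deviation of log2(FPKM + 1) from its group mean over the 16 libraries, which share depth and composition, so the correlations are a description. S100a8 and S100a9 had Pearson's r of 0.94 (Spearman's rho 0.92), and r was 0.85 without the 2 libraries farthest from the median. S100a1 and S100a6 had 0.85 and S100a13 and S100a16 had 0.80. S100a11 and S100a16 had 0.86 but 0.55 without the 2 farthest libraries. The back-to-back genes S100a1 and S100a13 had an r of 0.36, and S100a4 and S100a6 had 0.49.

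By the same measure, the genes most like S100a8 were S100a9, Csf3r (r = 0.93), Nfam1 (0.90), Chil3 (0.90) and Ccr2 (0.88), and S100a9 shared Csf3r, Chil3 and Ccr2. These values rested in part on Ang II 1 and Ang II 3, the 2 farthest libraries. Without them the r of S100a8 was 0.80 with Csf3r, 0.71 with Nfam1, 0.71 with Chil3 and 0.67 with Ccr2. That of S100a9 was then 0.71 with Csf3r, 0.67 with Chil3 and 0.69 with Ccr2. S100a10 varied most like Cdk1 (0.88), Lmnb2 (0.87), Cenpm (0.83), Birc5 (0.83) and Tubb5 (0.82). Without its 2 farthest libraries, Ang II 1 and Ang II 4, these were 0.86, 0.84, 0.85, 0.71 and 0.69. The single genes most like S100a4, S100a6, S100a1, S100a11, S100a13 and S100a16 were, in this order, Rpl30 (0.84), Usmg5 (0.90), Med31 (0.93), Hspe1 (0.93), Mrpl54 (0.98) and Snrpg (0.90). The r of S100a11 and Hspe1 was 0.71 without the 2 farthest libraries. S100b varied most like Nfatc1 (0.85), Hoxd8 (0.84) and Hoxa10 (0.83).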

How the data were processed

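Messenger RNA of mouse aorta without adventitia was sequenced in 16 libraries, 8 with saline and 8 with Ang II. The authors deposited 1 table of FPKM for 54532 genes, per the file headers, and a gene length in bases. The build named is GRCm38 (mm10), per the submitters' processing notes; for the aligner, the counter and its strand setting, the sources used here give nothing. Groups and replicate numbers came from the sample titles.

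Multiplying FPKM by the mean GENCODE M21 transcript length and the library total gave back whole reads. In each library 95.8% to 96.3% of values above 0 were whole within 0.02 of a read, and reads were recovered for 30964 of 31423 genes, all S100 genes included. The recovered reads differed between all 56 pairs of libraries within groups by more than sampling noise (lowest chi-square per degree of freedom 18.0).

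log2(FPKM + 1) of genes averaging 0.5 FPKM or more was fitted with limma 3.58.1 (R 4.3.3, trend over intensity), two-sided, with no covariate and Benjamini-Hochberg adjustment over 15007 genes at a threshold of 0.05. The 2 ratios had exact permutation tests in Python 3.11.15 (numpy 2.4.6, scipy 1.17.1). The fit was checked on simulated data. The S100 genes, the partner and marker lists and the tests were chosen with earlier results of these data known. Named partners were up to 3 that rose and 3 that fell per list ranked by adjusted p, if they averaged 1 FPKM or more, and always Ager, Tlr4, Anxa2 and Ahnak. S100a7a and the members of its list at 0, Fgf1, Fkbp5 and Trp53 are given as further list members. The plot of partners labels the called genes it shows. 1 called gene of the plasminogen list counts in its totals but is not reported here. Similar genes were the 5 with the highest Pearson's r. Of the marker lists not described in the report, called genes were 0 higher and 2 lower of 10 for fibroblasts, 0 and 3 of 10 for endothelium, 0 and 0 of 4 for skeletal muscle, and 0 and 0 of 5 each for lymphocytes and erythrocytes. Over all genes tested the shares were 9.54% higher and 24.9% lower. Smarca3, Septin2 and S100a7l2 were absent as symbols from the table. The alternatives tried were a pseudocount of 0.1, other filters, 2 scalings, array weights, marker scores as covariates, a replicate block, a Wilcoxon rank-sum test, voom on recovered reads and libraries left out; leaving out Ang II 1 and Ang II 3 together was chosen after seeing the data.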

Additional observations from a re-analysis of the deposited data

Results flagged for a closer look

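In 7 of the 24 groups of 8 libraries looked at for the S100 genes and their ratios, 1 library stood apart from the other 7 by a Dixon gap at the 95% level. Chance gives this in about 1 in 20 groups only if values are normally distributed and groups independent. FPKM values near 0 are skewed and the genes share libraries, so 7 of 24 cannot be held against that rate. For S100a8 these were Saline 4 at 4.01 FPKM, where the other saline libraries held 0 to 1.25, and Ang II 1 at 56.8 FPKM, where the others held 0.117 to 17.0. The same libraries stood apart for S100a9, Saline 4 at 4.17 FPKM (others 0 to 1.11) and Ang II 1 at 50.2 FPKM (others 1.55 to 23.3). Saline 7 stood apart for S100a11 at 779.8 FPKM (others 384 to 493) and for S100a16 at 186.5 FPKM (others 107 to 137). Ang II 4 stood apart for S100b at 5.06 FPKM (others 1.87 to 2.90).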

How the results depend on the processing

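Over 30 alternatives, S100a4 and S100a6 stayed called higher in all, and S100a9 in all but the macrophage and monocyte covariate (1.34). S100a8 was called in 2 and S100a11 in 5, and S100a1, S100a10, S100a13, S100a16 and S100b in 0. The number of S100 genes called higher was 2 to 4 and none was called lower. The log2 fold change changed sign for S100b with the adipocyte covariate (-0.0817), without Ang II 4 (-0.0535), without Saline 7 (-0.0230), without Saline 7 and Saline 8 (-0.0639) and without Saline 2, Saline 7 and Saline 8 (-0.0668). It did so for S100a13 with array weights (0.0420), quantile normalization (0.0490), without Saline 7 and Saline 8 (0.0520) and without Saline 2, Saline 7 and Saline 8 (0.0984), for S100a1 with median ratio scaling (0.0452) and quantile normalization (0.131), and for S100a10 with quantile normalization (0.0310). All genes called higher and lower numbered 871 and 2166 with the adipocyte covariate, 774 and 2004 with the macrophage and monocyte covariate, 2238 and 2114 with median ratio scaling and 2270 and 2374 with quantile normalization. Partners called higher were 11 with the adipocyte and 10 with the macrophage and monocyte covariate, and those called lower were 5 with the latter and 4 with either scaling. Voom on recovered reads called 1399 genes higher and 3566 lower. The S100a9 to S100a8 ratio did not pass without Saline 2, Saline 7 and Saline 8 (0.64, exact adjusted p = 0.0590). The cause of these changes was not tested.

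Leaving out 1 library at a time gave 1177 to 1535 genes higher and 3235 to 3894 lower, 3 to 4 S100 genes higher, and 15 to 18 partners higher and 6 to 9 lower. The log2 fold change of S100b was -0.0535 to 0.101, and the difference was 0.53 to 0.79 for the S100a9 to S100a8 ratio and -1.15 to -1.03 for S100a10 to Anxa2. With the replicate number as a block, 1414 genes were higher and 3531 lower, with 3 S100 genes and 20 partners higher and 8 partners lower, and both ratios kept their differences of 0.69 and -1.10 (sign-flip permutation test, exact, adjusted p = 0.00781). The numbers pair no animals in the labels, and 2 of 8 libraries correlated best with their own number (correlations from -0.25 to 0.39). Depth limits S100a8 and S100a9, with 0 to 37 reads per saline library.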
